A study of Mus musculus with 26 samples.

Results

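The mitochondrial genome of the mouse carries 37 genes, and all 37 had a row in the deposited count table of 54532 genes. They were chosen by a gene symbol that begins with mt- and comprise 13 protein-coding genes, 2 ribosomal RNA (rRNA) genes and 22 transfer RNA (tRNA) genes, each of them on the mitochondrial chromosome. RNA was measured in 26 libraries from untreated mice, labelled day 0. Of these, 6 held immunoprecipitated (IP) RNA of the retina and 6 held retina input RNA. IP RNA from the optic nerve head (ONH) gave 7 libraries, and IP RNA from the myelinated optic nerve proper (ONP) gave 7. The labels name astrocytes as the source of the RNA. Summed markers listed for other cell types were as high or higher in all IP groups, with limits given below. The strain, genotype and age of the mice, the protein that was immunoprecipitated and the means of marking astrocytes are not given in the sources used here.

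Mitochondrial DNA is transcribed from both strands into long precursors, from which tRNAs are cut out and the mRNAs and rRNAs between them released. The mRNAs encode membrane subunits of respiratory complexes I, III and IV and of ATP synthase (complex V), and they are translated inside the organelle by ribosomes built on the mitochondrial rRNAs. All the other subunits, and every protein that copies, transcribes or processes the mitochondrial genome, come from nuclear genes. Most mitochondrial mRNAs end in a short poly(A) tail, which in several of them completes the stop codon, whereas tRNAs carry no such tail. The libraries were made by capture of poly(A) RNA on oligo-dT beads.

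The 3′ ends of 6 of the mRNA genes show both kinds of ending and are printed because the assay reads mitochondrial transcripts through their tails. They are 30 bases long, 5′ to 3′, from build GRCm38, with the annotated stop codon, or the lone base left of it, in capitals.
mt-Nd1 (chrM:3678-3707): tttacagcgggagtaccaccatacataTAG
mt-Atp6 (chrM:8578-8607): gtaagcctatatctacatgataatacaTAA
mt-Co1 (chrM:6843-6872): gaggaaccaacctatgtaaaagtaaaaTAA
mt-Co3 (chrM:9361-9390): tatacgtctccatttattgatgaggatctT
mt-Nd4 (chrM:11515-11544): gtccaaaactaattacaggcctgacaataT
mt-Cytb (chrM:15259-15288): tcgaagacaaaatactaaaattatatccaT
Of the 13 protein-coding genes, mt-Co3, mt-Nd4 and mt-Cytb were annotated with 1 base past the last full codon, and the other 10 ended in a full stop codon. Neighbouring genes share bases in places. mt-Atp8 and mt-Atp6 share 43 bases and mt-Nd4l and mt-Nd4 share 7 bases on 1 strand, and mt-Nd5 and mt-Nd6 share 14 bases on opposite strands. The library kit does not mark strand, so reads in the last of these overlaps, and any antisense reads over mt-Nd6, cannot be told apart by gene.

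Part of the mitochondrial genome also exists as copies in the nuclear genome, and these decide how far some genes could be counted. Among the counted genes, 7 nuclear pseudogenes had at least 50% of their 31-base words in a mitochondrial gene. All 7 lie next to each other on the minus strand of chromosome 1. Gm28437 matches mt-Co3 without a difference over 783 bases, and its first 60 bases are printed beside those of mt-Co3 to show this.
mt-Co3 (chrM:8607-8666): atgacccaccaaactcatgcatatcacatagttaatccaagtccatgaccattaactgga
Gm28437 (chr1:24613912-24613971, minus strand): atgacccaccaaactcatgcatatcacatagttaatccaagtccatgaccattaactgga
Gm28661 (mt-Co2), Gm10925 (mt-Atp6), Gm10222 (mt-Nd4l) and Gm28439 (the first 876 bases of mt-Nd4) were likewise identical to the gene in brackets over their aligned length. Gm28438 differs from mt-Nd3 by the substitution T3C, and Gm29216 from mt-Co1 by A1066T over 483 aligned bases. The bases of Gm29216 before its base 10 lay outside the alignment. Positions are counted from the first base of the mitochondrial gene, and its base is given first. The stretch around the difference in mt-Co1 is shown with that base in capitals.
mt-Co1 (chrM:6390-6449): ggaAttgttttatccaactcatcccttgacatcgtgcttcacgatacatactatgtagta
Gm29216 (chr1:24616129-24616188, minus strand): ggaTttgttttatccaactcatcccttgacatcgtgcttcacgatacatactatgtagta

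Words found in no nuclear transcript made up 0% of mt-Co2, 0.133% of mt-Co3, 0.461% of mt-Atp6, 1.12% of mt-Nd4l and 1.89% of mt-Nd3. They made up 36.1% of mt-Co1 and 37.2% of mt-Nd4, and from 83.2% (mt-Nd5) to 100% (mt-Nd1 and mt-Rnr1) of the remaining mRNA and rRNA genes. The pseudogenes took most of the counts of 3 of these pairs. In retina IP libraries Gm10925 held 20999 counts and mt-Atp6 held 4455, and in retina input Gm10925 held 97838 counts and mt-Atp6 held 18974. The share of the pair's counts that fell on the pseudogene was 82.5% in retina IP, 83.8% in retina input, 88.7% in ONH and 89.4% in ONP for mt-Atp6. For mt-Co2 it was 78.4%, 77.6%, 85.4% and 85.3%, and for mt-Co3 75.7%, 74.5%, 83.7% and 83% in the same order. For mt-Co1 it was 4.45%, 4.33%, 2.97% and 2.84%. The nerve values pool replicate 7, which the labels place in another batch than replicates 1 to 6, and the split differed. In ONH replicate 7 Gm29216 held 1787 counts and mt-Co1 20410, against 170 to 542 and 11392 to 26848 in replicates 1 to 6. Gm10925 held 1009 counts and mt-Atp6 211 in ONH replicate 7, against 205 to 577 and 15 to 57 in replicates 1 to 6. Counts of mt-Co2, mt-Co3, mt-Atp6, mt-Nd3 and mt-Nd4l are therefore uncertain, since they give only what was assigned to the mitochondrial gene of each pair.

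Some libraries stood apart before any gene was compared. All retinal libraries were labelled batch 2 together with 1 ONH and 1 ONP library (replicate 7 of each, here called the bridging libraries), and the other 12 optic nerve libraries were batch 1. Total counts ran from 11164619 to 27431026 per library. The sum of 4 Y-linked genes was 0 or 1 count in every batch 2 library and 702 to 2262 counts in batch 1, so that sex goes with batch. Retina input replicates 1 and 2 detected 16782 and 17082 genes, while the remaining inputs detected 19835 to 20702. The summed level of 8 astrocyte markers was 819, 5639, 4118, 6729, 1218 and 1566 CPM (counts scaled to a common library total) in retina IP replicates 1 to 6, against 305 to 1209 CPM in retina input, and ran from 4933 to 23882 CPM in ONH and from 9873 to 30605 CPM in ONP. Retina IP replicate 1 thus lay within the range of the inputs, and replicates 5 and 6 little above it. None of the 8 astrocyte markers was called higher in retina IP than in input, although all 8 estimates were positive (median log2 fold change 2.34). Müller glia markers exceeded astrocyte markers in every retina IP library, at 8154 to 30618 CPM. The same Müller glia list summed to 20318 to 50908 CPM in ONH and 25790 to 48185 CPM in ONP, also above the astrocyte markers. High sums of this list were thus not particular to the retina and do not by themselves show Müller glia. Oligodendrocyte markers summed to 27381 to 69457 CPM in ONH and 34891 to 113853 CPM in ONP, above the astrocyte markers in every library, and to 55.9 to 166 CPM in retina IP. Microglia markers summed to 255 to 2140 CPM in ONH, 335 to 3283 CPM in ONP and 125 to 206 CPM in retina IP. Rod photoreceptor markers summed to 49763 CPM in the bridging ONH library and to at most 712 CPM in the other ONH libraries.

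Mitochondrially encoded transcripts made up a smaller share of all counts in retina IP than in retina input. By group medians it was smallest in the batch 1 optic nerve libraries, whose range overlapped that of retina IP. The share was 0.384%, 1.03%, 2.11%, 2.23%, 0.155% and 0.259% in retina IP replicates 1 to 6. In retina input replicates 1 to 6 it was 8.16%, 15.2%, 2.79%, 3.78%, 3.08% and 4.01%. The groups did not overlap: the lowest input was 1.25 times the highest IP library, and the median of retina IP was 0.182 times that of retina input. In bulk RNA, fewer cells of a type and less RNA per cell cannot be told apart, and neither can a change in mitochondrial RNA and a change in all other RNA.

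The share was uneven among the retina IP libraries, and other measures moved with it. Replicates 2, 3 and 4, with the 3 highest mitochondrial shares, also had the 3 highest sums of astrocyte markers, given above, and of Müller glia markers. Müller glia markers summed to 30618, 27922 and 29653 CPM in those replicates and to 8154 to 13629 CPM in replicates 1, 5 and 6. Retinal ganglion cell markers summed to 2241, 1534 and 923 CPM in replicates 2, 3 and 4, and to 5480, 4820 and 5053 CPM in replicates 1, 5 and 6. Replicates 3 and 4 also detected the fewest genes, 17985 and 18778 against 20110 to 21247 in the other retina IP libraries. Rod markers were highest in the same 2 libraries, at 2828 and 2859 CPM against 646 to 1238 CPM. Replicate 2 did not share this, with 21247 genes and 847 CPM of rod markers. The part of these measures in the mitochondrial share was not tested.

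Among the inputs, replicates 1 and 2, which held the highest shares, also held the highest sums of 14 cytosolic ribosomal protein genes, 8328 and 10462 CPM against 3772 to 4376 CPM in the other inputs. Nuclear-retained RNAs summed to 1804 and 970 CPM in those libraries and to 324 to 451 CPM in the others. Without replicates 1 and 2, the inputs lay between 2.79% and 4.01% and still above every retina IP library.

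In the optic nerve the share was 0.166% to 0.27% in the 6 batch 1 ONH libraries and 0.0932% to 0.19% in the 6 batch 1 ONP libraries. The bridging libraries had 0.424% (ONH) and 0.591% (ONP), which is 2.4 and 4.21 times the median of batch 1. Both lay above all libraries of their region and within the range of retina IP. With nuclear protein-coding counts as the denominator the share was 0.156% to 2.31% in retina IP and 2.92% to 18.5% in retina input. With the 7 pseudogenes added it was 0.162% to 2.34% in retina IP and 2.92% to 16% in retina input.

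**Figure D1:**
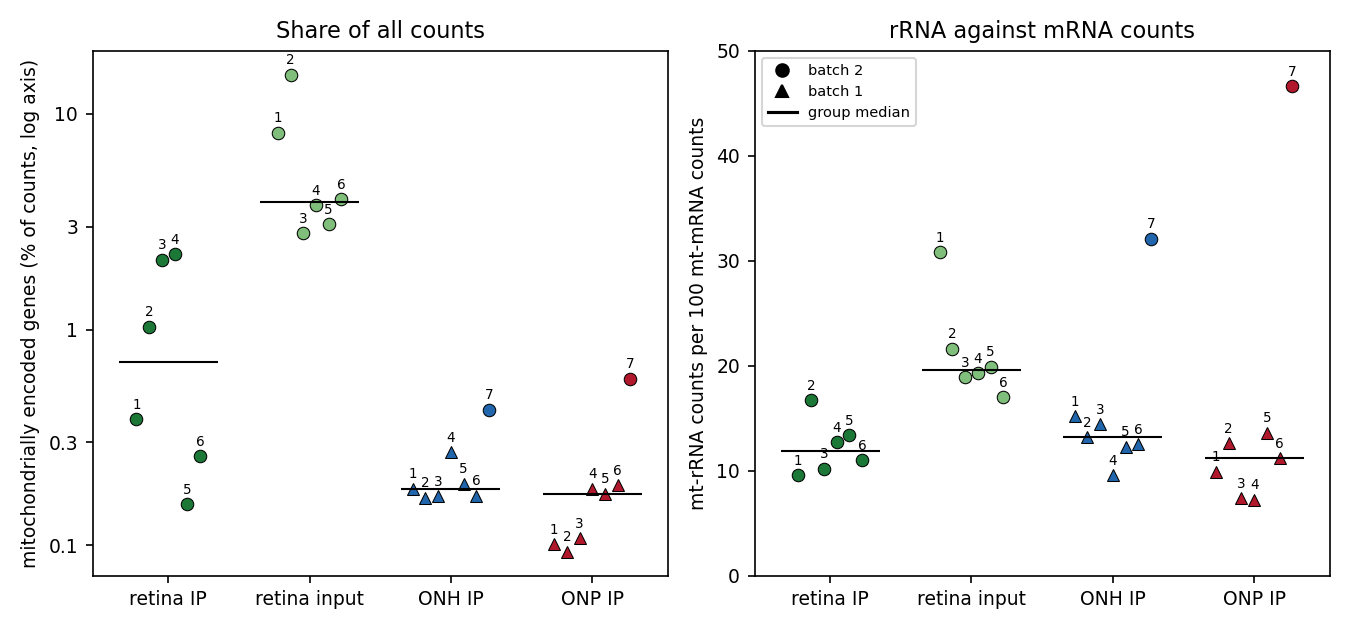
The left panel plots the percentage of all counts from mitochondrially encoded genes (log axis), and the right panel mitochondrial rRNA counts per 100 mitochondrial mRNA counts, for each of the 26 libraries. Numbers are replicates, circles batch 2, triangles batch 1 and lines group medians. Every retina IP library lies below every retina input library in both panels, and the bridging replicate 7 of ONH and of ONP lies above the other libraries of its region.

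In each group a few transcripts held nearly all of the mitochondrial counts. Between genes, levels are compared as median CPM per kilobase of gene. In retina IP the order was mt-Nd1, a core subunit of complex I (1760 CPM per kb), mt-Cytb, the cytochrome b of complex III (1437), mt-Co1, the catalytic subunit of complex IV (931), and mt-Rnr2, the large-subunit rRNA (531). In retina input mt-Cytb came first (10063 CPM per kb), then mt-Nd1 (8513), mt-Co1 (4780) and mt-Rnr2 (3595). In ONH the order was mt-Co1 (616 CPM per kb), mt-Nd1 (294) and mt-Cytb (192). In ONP it was mt-Co1 (528 CPM per kb), mt-Cytb (213) and mt-Nd1 (178). Apart from mt-Atp8, the genes with almost no words of their own lay lowest in every group, between 6.89 (mt-Nd4l) and 40.4 (mt-Co3) CPM per kb in retina IP and between 39.2 and 258 CPM per kb in retina input. mt-Atp8, a small subunit of ATP synthase, had 92.5% words of its own and stood at 6.34 CPM per kb in retina IP and 36.5 CPM per kb in retina input.

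**Figure D2:**
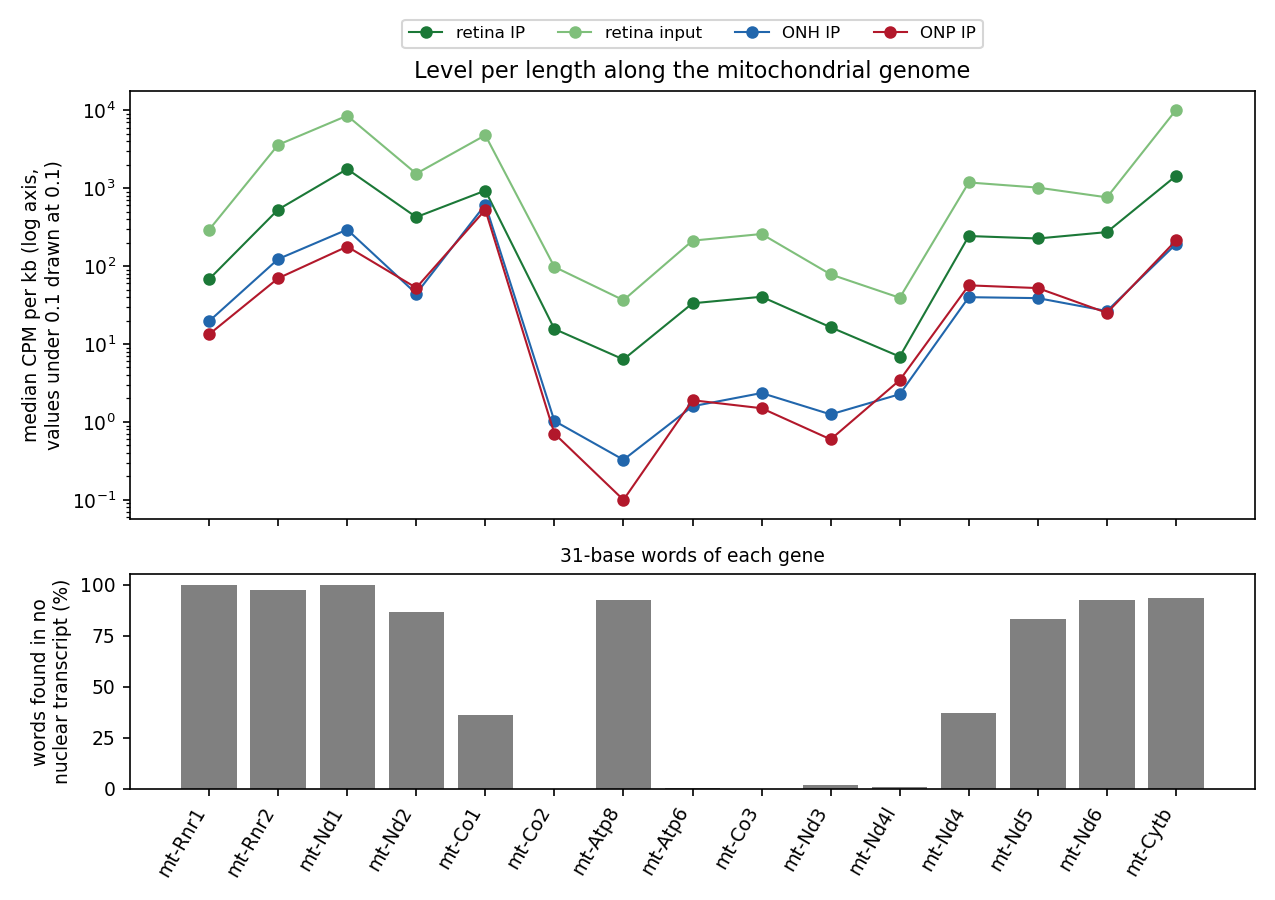
The upper panel plots the median CPM per kilobase (log axis) of the 13 mRNA and 2 rRNA genes in genome order for each of the 4 groups. The lower panel plots the percentage of each gene's 31-base words found in no nuclear transcript; mt-Co2, mt-Atp6, mt-Co3, mt-Nd3 and mt-Nd4l have under 2% and low levels, while mt-Atp8 has 92.5% and is low as well.

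The first comparison asked what immunoprecipitation changed relative to retinal input. All 19 mitochondrial genes that passed the filter on low counts (13 mRNA, 2 rRNA and 4 tRNA genes) were lower in retina IP, with log2 fold changes from -3.63 to -2.27. None was called at an adjusted p under 0.05 by the edgeR quasi-likelihood test, in which adjusted p ran from 0.057 to 0.107 and which called 0% of the 15181 genes tested as lower. At an unadjusted p under 0.05 all 19 were lower, against 10.4% of all genes tested. DESeq2 called 18 of them lower (7.27% of all genes tested) and gave mt-Tn no adjusted p, and an edgeR fit of all 26 libraries called all 19 lower (8.46% of all genes tested). Every retina IP library lay below every input library for 8 of the 13 mRNAs, both rRNAs and 2 of the 4 tRNAs, against 2.19% of all genes tested. Whether the libraries of a group stem from separate animals is not stated in the labels, and the p-values then refer only to variation from library to library, which may be technical.

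Of the 7 complex I genes, mt-Nd1 ran from 342 to 4958 CPM with a median of 1684 in retina IP, and from 5785 to 25140 with a median of 8147 in retina input (log2 fold change -2.57, SE 0.743, edgeR adjusted p = 0.0732). The ranges did not overlap. mt-Nd6, the protein-coding gene of the light strand, ran from 31.4 to 386 CPM (median 142) in retina IP and from 279 to 1578 CPM (median 396) in retina input. Its ranges overlapped, through replicates 3 and 4 of the IP, and its change was one of the 2 smallest (-2.35, SE 0.756, adjusted p = 0.0932). The other 5, mt-Nd2, mt-Nd3, mt-Nd4, mt-Nd4l and mt-Nd5, had log2 fold changes of -2.74, -2.68, -2.83, -2.64 and -2.44 (adjusted p from 0.0693 to 0.0823), and only mt-Nd4 and mt-Nd4l of these were free of overlap.

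mt-Cytb ran from 365 to 6117 CPM (median 1644) in retina IP and from 7858 to 56720 CPM (median 11512) in retina input (-3.15, SE 0.859, adjusted p = 0.0692). No IP library reached the lowest input, and input replicate 2 held the 56720 CPM. mt-Co1 ran from 342 to 5095 CPM (median 1439) in retina IP and from 5671 to 19796 CPM (median 7385) in retina input. It did not overlap either and had the change nearest to 0 of the 19 genes (-2.27, SE 0.707, adjusted p = 0.086). The other complex IV subunits, mt-Co2 and mt-Co3, changed by -2.90 and -2.92 (adjusted p = 0.0663 and 0.0701) without overlap.

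mt-Atp6, which forms the proton channel of ATP synthase with nuclear subunits, ran from 4.74 to 96.6 CPM (median 22.7) in retina IP and from 86.2 to 641 CPM (median 144) in retina input (-2.92, SE 0.848, adjusted p = 0.0737). IP replicate 4 alone lay above the lowest input. mt-Atp8 changed by -3.20 (adjusted p = 0.0732), without overlap. Gm10925, which holds most of the counts for the mt-Atp6 sequence, moved the same way: with both summed, the median was 140 CPM in retina IP, against 846 CPM in the inputs.

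With all inputs included, the rRNAs had the largest changes of the mRNA and rRNA genes. mt-Rnr2 ran from 171 to 2307 CPM (median 840) in retina IP and from 4226 to 25340 CPM (median 5688) in retina input (-3.63, SE 0.84, adjusted p = 0.057). mt-Rnr1, the small-subunit rRNA, ran from 11.6 to 197 CPM (median 64.8) in retina IP and from 219 to 1670 CPM (median 278) in retina input (-3.31, SE 0.891, adjusted p = 0.0687). Neither overlapped.

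The tRNAs were near the limit of detection. Over all libraries they held 2868 of 6801078 mitochondrial counts. Of the 22, 4 (mt-Tf, mt-Ts1, mt-Td and mt-Tk) had 0 counts in every library, 13 had fewer than 100 counts in all, and mt-Tp had 1189. mt-Tp, the proline tRNA of the light strand, is the most abundant, and its gene is printed for that reason (GRCm38, minus strand, 67 bases, no capitals).
mt-Tp (chrM:15356-15422): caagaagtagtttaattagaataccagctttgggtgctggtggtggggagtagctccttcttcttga
mt-Tp ran from 0.16 to 5.21 CPM in retina IP and from 4.52 to 30.5 CPM in retina input, with overlap (-2.72, SE 0.914, adjusted p = 0.102). The methionine tRNA mt-Tm (-3.15, adjusted p = 0.0634) and the asparagine tRNA mt-Tn (-3.18, adjusted p = 0.067) did not overlap, and the cysteine tRNA mt-Tc (-2.69, adjusted p = 0.107) did. Scaled as CPM of the mitochondrial counts alone, all tRNAs together made up 323 to 531 in retina IP and 322 to 495 in retina input.

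**Figure D3:**
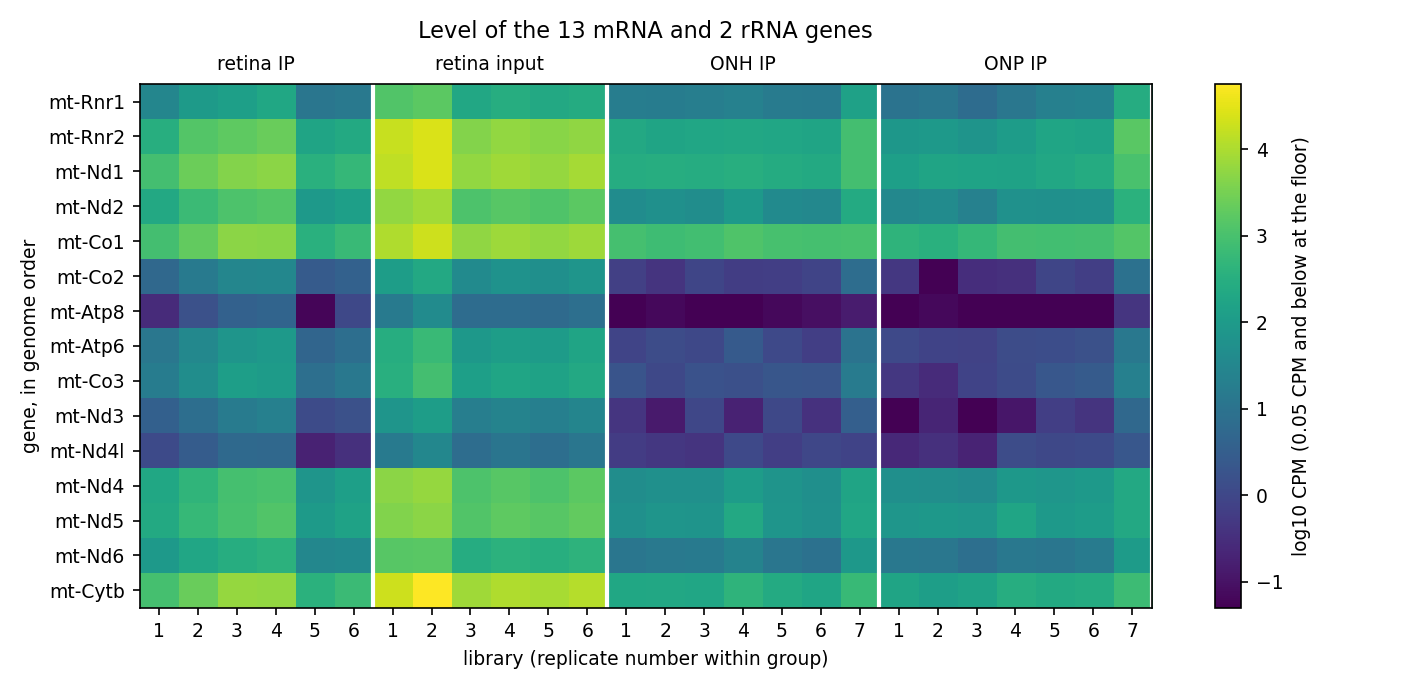
Each cell is the level of 1 gene in 1 library as log10 CPM, with genes in genome order down the page and the libraries from left to right, retina IP and input first and then ONH and ONP. As a group the input libraries are the brightest, retina IP replicates 2, 3 and 4 are brighter than replicates 1, 5 and 6, and the bridging replicate 7 of ONH and ONP is brighter than its neighbours in most rows.

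The size of the difference rested in part on input replicates 1 and 2. Without both, all 19 log2 fold changes stayed negative but ran from -2.21 to -0.86. Their median was -1.51, against a median of -2.83 with both, and edgeR adjusted p ran from 0.113 to 0.471. At an unadjusted p under 0.05, 6 of the 19 were lower, beside 1318 of the 15881 genes tested. In that fit edgeR called 48 genes lower, none of them mitochondrial. Without input replicate 2 alone the median was -2.03. With both left out, mt-Rnr2 (-2.17) still had the largest change of the mRNA and rRNA genes. mt-Rnr1 (-1.48) did not keep its rank. Further from 0 lay mt-Co2 (-1.76), mt-Cytb (-1.74), mt-Atp8 (-1.73), mt-Nd4l (-1.71), mt-Co3 (-1.56), mt-Atp6 (-1.51) and mt-Nd1 (-1.50).

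Nuclear genes for the same respiratory complexes had estimates nearer to 0, none of which was called, and the difference in size from the mitochondrial genes was not tested. Of 49 nuclear subunits of complexes I, III, IV and V, 45 had negative estimates, with a median log2 fold change of -1.35, and 0 were called by edgeR (32 lower at an unadjusted p under 0.05). The median was -1.04 for 17 subunits of complex I, -1.59 for 9 of complex III, -1.55 for 10 of complex IV and -1.16 for 13 of complex V. Complex II, which has no mitochondrially encoded subunit, had a median of -0.09 over 4 genes. The median of all genes tested was 0.02. Without input replicates 1 and 2 the 49 subunits had a median of -0.22.

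The nuclear genes that maintain and express the mitochondrial genome had medians near that of all genes. They were 0.01 for 18 genes of mitochondrial DNA transcription and replication, -0.08 for 24 of RNA processing and decay and -0.24 for 28 of the mitochondrial ribosome and translation. The median was -0.15 for 20 membrane and matrix proteins and 0.35 for 12 regulators of biogenesis. None of these 102 genes was called by edgeR, and 13 were lower at an unadjusted p under 0.05. The 14 cytosolic ribosomal protein genes had a median of -1.35, and 10 rod markers one of -1.48.

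The makeup of the mitochondrial counts also differed between retina IP and retina input, which the total does not show. rRNA counts per 100 mRNA counts were 9.58 to 16.7 (median 11.8) in retina IP and 17 to 30.8 (median 19.6) in retina input, without overlap. The ratio of mt-Rnr2 to mt-Nd1 CPM was 0.348 to 0.551 in retina IP and 0.645 to 1.2 in retina input, again apart. The ratio of mt-Co1 to mt-Cytb was 0.825 to 0.965 in retina IP and 0.349 to 0.722 in retina input. By contrast, the ratio of mt-Rnr1 to mt-Nd1 overlapped, at 0.0264 to 0.0401 in retina IP and 0.0306 to 0.0839 in retina input. Both mt-Rnr1 and mt-Nd1 lack words shared with nuclear transcripts. These ratios describe the libraries and were not tested.

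**Figure D4:**
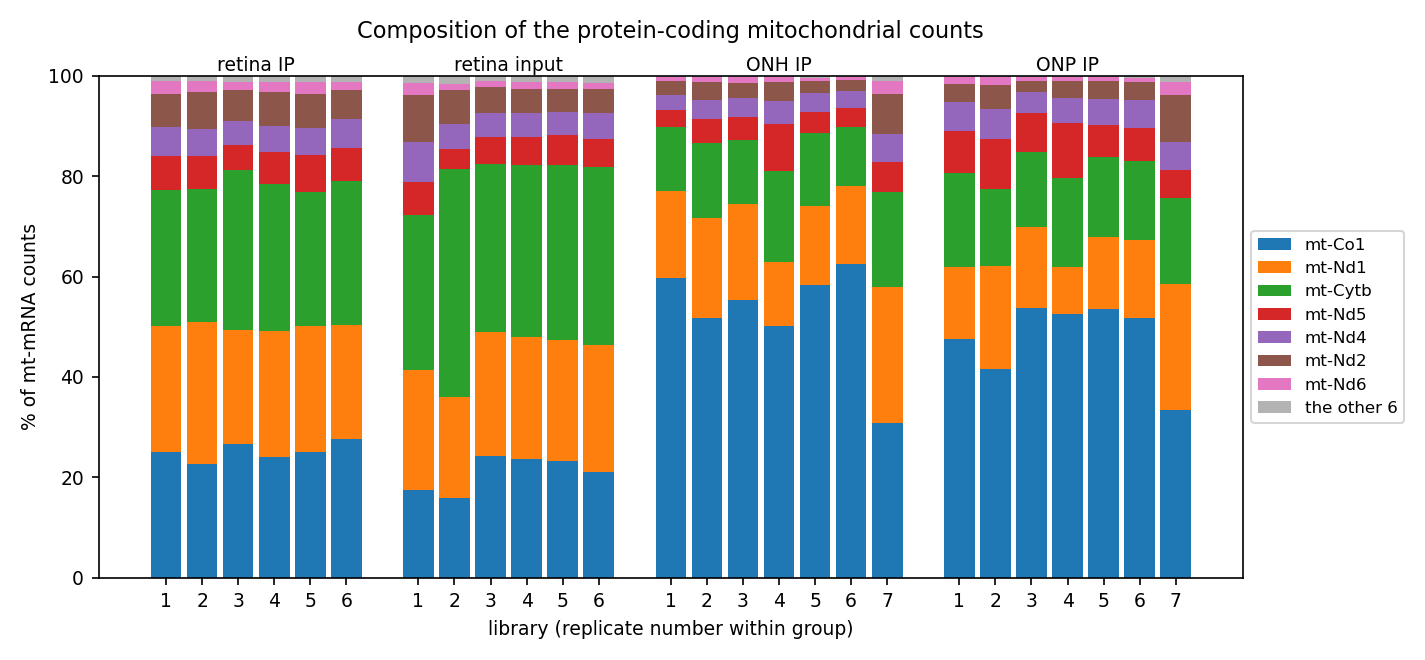
Stacked bars show the percentage of mitochondrial mRNA counts taken by 7 genes and by the other 6 together, for every library, with replicate numbers below. mt-Co1 takes 22.7% to 27.7% in retina IP and 15.9% to 24.2% in retina input, 41.5% to 62.5% in the batch 1 libraries of ONH and ONP, and 30.8% and 33.5% in their bridging libraries.

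The second comparison set retina IP against ONH IP. No mitochondrial gene of the 14 that passed the filter was called with batch as a term, while edgeR called 33.8% of all 16355 genes tested. Estimates were positive for 12 genes and negative for both rRNAs. mt-Cytb had the largest, with 365 to 6117 CPM in retina IP, 606 CPM in the bridging ONH library and 178 to 443 CPM in the other ONH libraries (log2 fold change 1.91, SE 0.856, edgeR adjusted p = 0.0899). Retina IP replicate 5 lay below the bridging library, and the ranges overlapped. mt-Rnr1 had the lowest, with 11.6 to 197 CPM in retina IP, 144 CPM in the bridging ONH library and 15.2 to 22.5 CPM in the others (-1.55, SE 0.763, adjusted p = 0.122). Its level in the bridging library exceeded all but 1 retina IP library. mt-Co1 ran from 342 to 5095 CPM in retina IP, reached 987 CPM in ONH replicate 7 and ran from 761 to 1238 CPM in the others (0.66, SE 0.774, adjusted p = 0.535).

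These estimates hinge on how batch is treated. Without a batch term 11 of the 14 genes were called higher in retina IP, against 23.7% of all genes tested, and all 14 estimates were positive, mt-Rnr1 included (1.07, adjusted p = 0.31). DESeq2 with the batch term called mt-Cytb higher (1.98, adjusted p = 0.026), as did edgeR without retina IP replicate 5 (2.20, adjusted p = 0.0319), and without retina IP replicate 4 mt-Rnr1 was called lower (-2.0, adjusted p = 0.0336). Only 1 ONH library shares the batch of the retina, and in that library rod markers were high, so batch, sex, the rod signal and region cannot be told apart. Markers of other cells moved with the same contrast. All 8 oligodendrocyte markers (median log2 fold change -9.41) and 9 of 10 microglia markers (-4.64) were called lower in retina IP than in ONH. All 8 retinal ganglion cell markers were called higher (4.47), and all 10 rod markers lower (-4.41). The rod markers summed to 646 to 2859 CPM in retina IP, 49763 CPM in the bridging ONH library and 41.7 to 712 CPM in batch 1 ONH. Retina IP was thus far below the bridging ONH library in rod markers, but mostly above the batch 1 ONH libraries. The part of all these markers in the mitochondrial estimates was not tested.

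The third comparison set retina IP against ONP IP, with the same retina IP libraries as the second. Again no gene of 14 was called, against 32.8% of all genes tested. mt-Cytb ran from 365 to 6117 CPM in retina IP, stood at 689 CPM in the bridging ONP library and ran from 127 to 304 CPM in the others (2.02, SE 0.846, adjusted p = 0.0736). mt-Nd1 ran from 342 to 4958 CPM in retina IP, stood at 1010 CPM in the bridging ONP library and ran from 133 to 263 CPM in the others (1.34, SE 0.73, adjusted p = 0.169). All 6 retina IP libraries lay above the batch 1 ONP libraries in both genes, and 2 (mt-Cytb) or 3 (mt-Nd1) of them lay below the bridging library. mt-Rnr1 had 282 CPM in the bridging ONP library, above every retina IP library, and 6.76 to 24.2 CPM in the others (-1.47, SE 0.704, adjusted p = 0.116).

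Without a batch term 11 genes were called higher in retina IP than in ONP, against 25.8% of all genes tested. DESeq2 called mt-Cytb alone (2.09, adjusted p = 0.0185), as did edgeR without retina IP replicate 5 (2.29, adjusted p = 0.025) or replicate 6 (2.27, adjusted p = 0.041). Without retina IP replicate 4 mt-Rnr1 was called lower (-1.93, adjusted p = 0.0289). In batch 2 alone, with 1 ONP library, the estimates were 2.07 for mt-Cytb and -1.70 for mt-Rnr1, and no mitochondrial gene was called. All 8 oligodendrocyte markers (median -10.66) and all 10 microglia markers (-4.94) were called lower in retina IP than in ONP, and all 8 retinal ganglion cell markers higher (6.03), while no rod marker was called. Their part was again not tested.

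**Figure D5:**
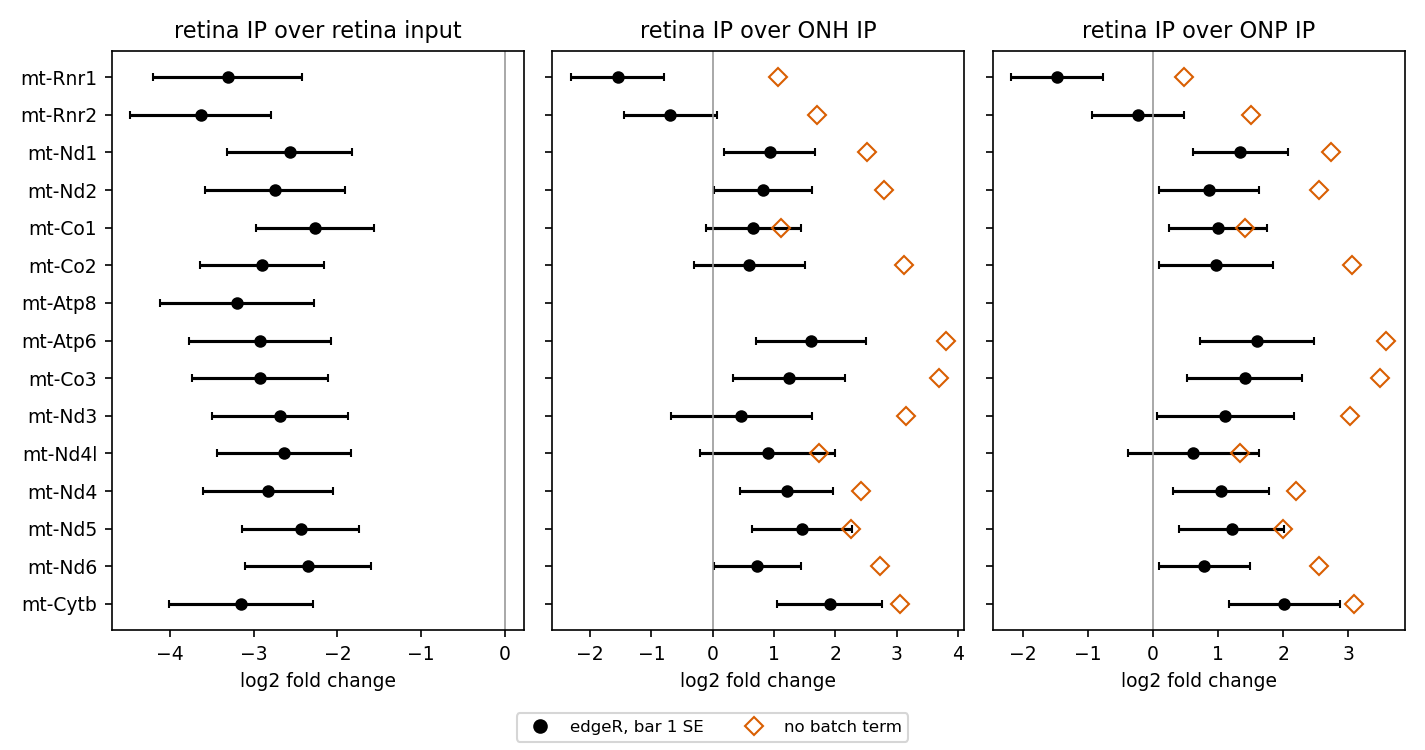
Log2 fold changes of retina IP over retina input, ONH IP and ONP IP for the mRNA and rRNA genes, as edgeR estimates with bars of 1 SE (black) and, for the nerve regions, without a batch term (open diamonds). All 15 estimates over input are negative. Those over ONH and ONP straddle 0 with the batch term and are all positive without it; mt-Atp8 did not pass the filter there.

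The bridging libraries differed from the others of their region gene by gene, not by 1 common factor. The bridging ONH library lay above all batch 1 ONH libraries in 12 of the 15 mRNA and rRNA genes, and the bridging ONP library above all batch 1 ONP libraries in 15 of 15. Over the batch 1 median, mt-Co1 was 1.04 times as high in the bridging ONH library and 1.99 times in the bridging ONP library. mt-Nd1 was 3.12 and 6.04 times as high, mt-Rnr2 4.57 and 15.8 times, and mt-Rnr1 7.95 and 22.9 times. rRNA counts per 100 mRNA counts were 32.1 and 46.6 in the bridging ONH and ONP libraries, and 7.22 to 15.2 in all batch 1 libraries. The ratio of mt-Co1 to mt-Cytb was 1.63 and 1.96 in the bridging libraries, 2.79 to 5.3 in batch 1 ONH and 2.55 to 3.59 in batch 1 ONP. In retina IP, of the same batch as the bridging libraries, it was 0.825 to 0.965.

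Copy counts went with batch too. The 7 pseudogenes together held 4.77% to 6.04% as many counts as the mitochondrial genes in retina IP, 4.48% to 5.18% in retina input, 5.19% in the bridging ONH library and 5.07% in the bridging ONP library. In batch 1 they held 2.25% to 3.46% in ONH and 2.29% to 3.28% in ONP. The ranges of the batches did not overlap.

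The fourth comparison set ONH against ONP, where 6 libraries of each share batch 1. None of 14 mitochondrial genes was called (edgeR; 7.48% of all genes tested were called), and log2 fold changes ran from -0.28 (mt-Nd4l) to 0.64 (mt-Nd3), with 0 genes under an unadjusted p of 0.05. In batch 1 alone, mt-Rnr2 and mt-Nd1 of the 13 genes tested were called higher in ONH, against 8.57% of all genes tested. mt-Rnr2 ran from 173 to 223 CPM (median 194) in batch 1 ONH and from 67.8 to 185 CPM (median 101) in batch 1 ONP (0.68, adjusted p = 0.0427). mt-Nd1 ran from 233 to 317 CPM (median 278) in batch 1 ONH and from 133 to 263 CPM (median 167) in batch 1 ONP (0.53, adjusted p = 0.0329). With the replicate number as a block as well, a fit added after the data were seen, mt-Rnr2 (0.77, adjusted p = 0.0167), mt-Nd1 (0.57, adjusted p = 0.0237) and mt-Co1 (0.56, adjusted p = 0.0207) were called higher, against 12.5% of all genes tested. mt-Rnr2 and mt-Nd1 overlapped between the regions, and both were highest in the ONP bridging library once batch 2 was included.

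Within batch 1, replicate 4 of both nerve regions had the highest level of mt-Nd5, a proton-pumping subunit of complex I. It stood at 230 CPM in ONH replicate 4 and at 55 to 72.2 CPM in the other batch 1 ONH libraries. In ONP it stood at 184 CPM in replicate 4 and at 76.7 to 113 CPM in the others. mt-Nd5 made up 9.34% of mitochondrial mRNA counts in ONH replicate 4 and 3.45% to 4.81% in the other batch 1 ONH libraries. In ONP it made up 10.8% in replicate 4 and 6.25% to 9.98% in the others. mt-Cytb was likewise highest in replicate 4 of each, at 443 CPM in ONH and 304 CPM in ONP. This was seen after the values were known and was not tested.

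Nuclear genes for mitochondria were called in both directions between retina IP and the nerve, mostly no more often than other genes. Of all genes tested, 12.7% were called higher and 21.1% lower in retina IP than in ONH, and 12.9% higher and 19.9% lower than in ONP. Among 18 genes of mitochondrial DNA transcription and replication, 1 was higher and 3 lower in retina IP than in ONH, and 2 were higher and 2 lower than in ONP, or 4 of 18 either way beside the 33.8% and 32.8% of all genes given above. Tfam, the factor that packages mitochondrial DNA and starts its transcription, averaged 36.2 CPM in retina IP, 30.7 CPM in ONH and 28.4 CPM in ONP (log2 fold change 0.51, edgeR adjusted p = 0.04, over ONH and 0.56, adjusted p = 0.0277, over ONP). Polg2, the accessory subunit of the mitochondrial DNA polymerase, averaged 4.57 CPM in retina IP, 13.8 CPM in ONH and 7.45 CPM in ONP (-2.79, adjusted p = 0.000289, and -2.58, adjusted p = 0.0024, in the same order). Without ONH replicate 7 the call of Polg2 ended in both (-0.34, adjusted p = 0.726, and -0.51, adjusted p = 0.511), and Tfam was not called without ONP replicate 7 (0.41, adjusted p = 0.248, and 0.43, adjusted p = 0.316), over ONH without ONH replicate 7, ONP replicate 1 or retina IP replicates 1 or 2 (adjusted p from 0.0505 to 0.087), or without a batch term (0.11 and 0.16).

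Among 24 genes of mitochondrial RNA processing and decay, 3 were higher and 3 lower in retina IP than in ONH, and 3 were higher and 1 lower than in ONP, again below the 33.8% and 32.8% of all genes. Mtpap, the poly(A) polymerase of mitochondrial mRNAs, averaged 25.7 CPM in retina IP, 14 CPM in ONH and 15.1 CPM in ONP (0.90, adjusted p = 0.00571, and 0.72, adjusted p = 0.0228). Rexo2, an exonuclease that degrades short RNAs in mitochondria, averaged 91.1 CPM in retina IP, 154 CPM in ONH and 139 CPM in ONP (-1.01, adjusted p = 0.00161, and -0.92, adjusted p = 0.00255). Of 28 genes of the mitochondrial ribosome and translation, 2 were higher and 4 lower than in ONH, and 2 higher and 2 lower than in ONP. Oxa1l, which inserts newly made subunits into the inner membrane, was higher over both (1.46, adjusted p = 0.00644, and 1.5, adjusted p = 0.0056).

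Nuclear subunits of complexes I, III, IV and V were 2 higher and 13 lower of 49 in retina IP against ONH, and 1 higher and 2 lower against ONP. The 13 of 49 lower than in ONH stand beside 21.1% of all genes, and the 3 called against ONP beside 32.8%. Atp5a1, the catalytic-core alpha subunit of ATP synthase, averaged 1356 CPM in retina IP, 694 CPM in ONH and 672 CPM in ONP (0.95, adjusted p = 0.0178, and 0.94, adjusted p = 0.0241). The batch term set the sign of many: without it, 33 of the 49 estimates over ONH and 25 of those over ONP changed sign. Cox7c of complex IV had means of 123 CPM (retina IP) and 42 CPM (ONH), and its estimate was -0.98 with the batch term (adjusted p = 0.00579) and 1.47 without it (adjusted p = 0.0712). Of 20 membrane and matrix proteins, 5 were higher and 1 lower than in ONH, and 10 were higher and 0 lower than in ONP. Of all genes tested, 12.7% were higher than in ONH and 12.9% higher than in ONP, so this list was called higher more often. Vdac1, the main channel of the outer membrane, averaged 870 CPM in retina IP, 232 CPM in ONH and 157 CPM in ONP (1.87, adjusted p = 0.0039, and 2.36, adjusted p = 0.000822). Sirt3, the matrix deacetylase counted with the 12 biogenesis regulators, was higher over both (1.04, adjusted p = 0.00102, and 1.21, adjusted p = 0.00021), and Tfeb, a regulator of lysosome genes, was lower (-1.43, adjusted p = 0.00606, and -1.93, adjusted p = 0.000369). Calls over all genes leaned on the bridging ONP library. Without it, genes called higher and lower fell from 2080 and 3452 to 722 and 2262 over ONH. Over ONP they fell from 2116 and 3255 to 567 and 1588. Of the 21 named tests of nuclear genes, 19 of them of retina IP against a nerve region, 13 no longer passed without that library. Among them were Mtpap, Rexo2, Oxa1l and Atp5a1 over both regions (adjusted p from 0.0528 to 0.428), Vdac1 and Tfeb over ONH (adjusted p = 0.0596 and 0.0698) and Cox7c (-0.35, adjusted p = 0.364), while Sirt3 passed over both. Without ONH replicate 7, Oxa1l over ONH did not pass either (adjusted p = 0.0667).

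Between ONH and ONP, 4 of the 49 nuclear subunits were called higher in ONH and 0 lower, beside 4.43% higher and 3.04% lower of all genes tested, and 44 of 49 estimates were positive, with a median of 0.34 against 0.02 for all genes. Ndufa1 of complex I averaged 59.6 CPM in ONH and 40.1 CPM in ONP (0.78, edgeR adjusted p = 0.0108), and Uqcrq of complex III 130 CPM in ONH and 85.1 CPM in ONP (0.64, adjusted p = 0.0164). The mitochondrially encoded genes had a median estimate of 0.09 in the same fit. All 10 rod markers were called higher in ONH than in ONP there (median 4.09), and 2 of 8 oligodendrocyte markers lower (median -1.01), and their part in these estimates was not tested. Ndufa1 and Uqcrq were not called in the edgeR fit of all 26 libraries (0.78 and 0.65, adjusted p = 0.414 and 0.472). Without a batch term edgeR did not call them either (0.51 and 0.55, adjusted p = 0.562 and 0.392).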

How the data were processed

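The labels' protocols state that poly(A) RNA was captured on oligo-dT beads and amplified with an ultra-low input kit. Per the submitters' processing notes, Salmon 1.6.0 and the build mm10 were used. The authors deposited an estimated count per gene, in whole numbers. Symbols, coordinates and sequences came from GENCODE M21 (GRCm38), with 54409 of 54532 identifiers matched. Members and gene lists were chosen with earlier results of these data known.

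CPM used total counts. edgeR 4.0.16 in R 4.3.3 fitted TMM-scaled counts (filterByExpr, minimum count 10, minimum total 15) with the quasi-likelihood test and Benjamini-Hochberg adjustment over all genes tested at 0.05. Retina IP was set against retina input on 12 libraries, and regions were compared on all 20 IP libraries with batch as a term. The code was tested on simulated data. All members are accounted for; those named in full are the mRNA and rRNA genes and the tRNA genes that passed the filter. From each nuclear list at most 2 called genes per direction with the smallest adjusted p were named. mt-Nd5 in replicate 4 and Cox7c were singled out after their values were seen. Words of 31 bases, in both orientations, were compared between the mitochondrial genes and the annotated transcripts of nuclear genes in the count table. Python 3.11.15 and Biopython 1.88 were used.

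Alternatives were DESeq2 1.42.0, voom of limma 3.58.1, other size factors, no filter, all 26 libraries, a replicate block, other treatments of batch, batch 1 alone with the replicate block (added after the data were seen) and the omission of each library. Same-numbered ONH and ONP libraries deviated together (correlations 0.104 to 0.503), which pairs them by the rule used. Retina IP and input numbers were not paired by that rule (-0.113 to 0.246). Retina IP replicates 1, 4, 5 and 6 still correlated best with the input of their own number, and replicates 2 and 3 did not. In the nerve, only ONH replicate 2 correlated best with an ONP library of another number. Beyond these correlations, whether same-numbered retinal libraries belong together was not tested. No quantity summed over the members was tested.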

Additional observations from a re-analysis of the deposited data

Results flagged for a closer look

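Values far from the rest of their group were looked for in 32 sets, each 1 measure in 1 group of libraries. A gap test was used, of which chance flags about 1 in 20. The measures were the mitochondrial share and single mitochondrial genes, which are not independent within a library. Of the 32 sets, 16 were flagged, all for replicate 7 of ONH or ONP or for retina input replicate 2. The mitochondrial share was highest in replicate 7 of ONH (0.424%) and of ONP (0.591%). The same 2 libraries were flagged for mt-Atp6 (10.2 CPM in ONH and 13.2 CPM in ONP), mt-Nd1 (869 and 1010 CPM), mt-Nd6 (82.4 and 108 CPM), mt-Rnr1 (144 and 282 CPM) and mt-Rnr2 (887 and 1597 CPM), and replicate 7 of ONP also for mt-Cytb (689 CPM). Both are the only optic nerve libraries of batch 2, so library and batch cannot be told apart. Retina input replicate 2 was flagged for mt-Co1 (19796 CPM), mt-Atp6 (641 CPM) and mt-Cytb (56720 CPM).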

How the results depend on the processing

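For retina IP against retina input, the count of mitochondrial genes called lower was 0 in edgeR, 18 with DESeq2, 19 with all 26 libraries and 1 (mt-Rnr2) without the filter. It was 0 under other size factors, voom and the replicate block (adjusted p from 0.172) and 0 to 0 without each library, and all estimates stayed negative. Among all genes, edgeR called 40 lower without retina IP replicate 1, 20 without retina IP replicate 5 and 1 without input replicate 2. For retina IP against ONH and against ONP, counts called higher were 0 in edgeR, 1 with DESeq2 and 11 without a batch term in each, and leaving out single libraries gave 0 to 1 higher and 0 to 1 lower. mt-Rnr1 turned from negative to 1.07 (ONH) and 0.47 (ONP) without a batch term. mt-Rnr2 turned positive without a batch term (1.70 over ONH and 1.5 over ONP), over ONH with only the groups compared (0.22), and in batch 2 alone (0.37). Leaving out single libraries put mt-Rnr2 between -1.44 (ONH replicate 7) and 0.17 (ONP replicate 7) over ONH and between -0.76 (ONH replicate 7) and 0.85 (ONP replicate 7) over ONP. mt-Co1 over ONH was -0.19 with the replicate block. The cause was not tested. For ONH against ONP, mt-Rnr2 was -0.21 without a batch term, and batch 1 alone gave 2 genes higher. Adding the block to batch 1 alone gave 3. Elsewhere the block changed no mitochondrial call, but Tfam over ONH and ONP (edgeR adjusted p = 0.0934 and 0.0721) and Oxa1l and Cox7c over ONH (0.0531 and 0.0539) no longer passed with it. For retina IP against the nerve, the block joins retinal and batch 1 nerve libraries by number alone. Their same-number correlations were -0.128 to 0.150, and their Y-linked counts differed by batch. These block results, mt-Co1 over ONH included, therefore do not show how firm the estimates are. The nuclear Cox7c over ONH was 1.47 without a batch term. Per kilobase, the median part of mt-Co1 in mRNA levels was 18.6% (retina IP), 16.6% (retina input), 46.2% (ONH) and 43.5% (ONP). Counts split between members and nuclear copies, and tRNAs under 100 counts, limit what can be read of those genes.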
